A study of Mus musculus with 6 samples.

Results

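The serpins are a family of protease inhibitors and related carriers, and they were described here in livers labelled Control and Cyr61 KO. Every gene in the tables whose symbol is Serpin with a clade letter from a to i, a number and at most 1 further letter was taken, which gave 62 genes of 24411. Of the 61 described here, 30 passed the filter on low counts and were tested, 14 more had a few reads, and 17 had 0 counts in every library. The bulk RNA libraries were 3 labelled Control and 3 labelled Cyr61 KO. All 6 came from flash-frozen livers of male mice of the strain Cyr61fl/fl, 24 weeks old, kept for 12 weeks on a NASH diet, which models fatty liver with inflammation and scarring. The labels give the floxed strain for both groups. How the gene was removed, in which cells, and whether the libraries are of separate animals is not stated, so p-values cover only the spread among these 6 libraries.

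A typical serpin folds with an exposed reactive centre loop that serves as bait for a protease. The protease cleaves the loop, the loop inserts into the body of the serpin, and the enzyme is trapped in a dead complex. The hinge at the base of the loop is conserved in inhibitory members, and the P1 residue of the loop largely sets which protease is caught. Hepatocytes secrete most of the serpins of blood plasma, such as alpha-1-antitrypsin and antithrombin. Clade b members act inside cells, many of them leukocytes and epithelia. Several members inhibit nothing: Serpinh1 is a collagen chaperone, and Serpina6 and Serpina7 carry hormones.

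The mouse holds several copies of the alpha-1-antitrypsin gene, and the results below turn on how they differ. The 5 tested copies, Serpina1a to Serpina1e, lie side by side on the minus strand of chromosome 12. Their coding sequences, from GENCODE M21, differed at 19 to 46 of 1239 aligned positions, an identity of 96.3% to 98.5%. Differences gathered in the loop. The 75 bases from the hinge on are shown to make this visible, with the positions that vary among the 5 copies in capitals.
Serpina1a: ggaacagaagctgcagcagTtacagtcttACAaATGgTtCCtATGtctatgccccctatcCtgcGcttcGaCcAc
Serpina1b: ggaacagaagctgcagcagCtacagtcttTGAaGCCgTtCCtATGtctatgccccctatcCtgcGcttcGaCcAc
Serpina1c: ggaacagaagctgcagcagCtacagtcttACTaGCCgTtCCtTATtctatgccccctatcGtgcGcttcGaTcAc
Serpina1d: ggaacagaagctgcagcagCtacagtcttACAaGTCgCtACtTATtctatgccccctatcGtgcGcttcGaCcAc
Serpina1e: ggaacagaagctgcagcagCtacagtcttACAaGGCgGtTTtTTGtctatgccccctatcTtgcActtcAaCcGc
These windows run from codon 363 to codon 387. Of the 75 positions, 18 vary. Codon 377, which encodes the P1 residue, is ATG in Serpina1a and Serpina1b, TAT in Serpina1c and Serpina1d and TTG in Serpina1e. Serpina1e differs from the other copies at 10 to 12 positions of the window.

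Over the stretches upstream of the start that a pair of copies both hold, identity was 91.4% to 97.0%, and for pairs with Serpina1e 95.3% to 97.0%. The loop windows had 84.0% to 93.3%. The 90 bases below come from RefSeq's promoter table on GRCm38.p6, and they are shown for the copy with the lowest level in the knockouts and for those with the fewest and the most reads in the controls. Capitals mark GTTAAT, a half-site of the hepatocyte factor HNF1. All 3 are on the minus strand, at chr12:103956960-103957049, chr12:103773634-103773723 and chr12:103738200-103738289.
Serpina1e: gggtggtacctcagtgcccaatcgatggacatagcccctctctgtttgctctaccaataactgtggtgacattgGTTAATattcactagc
Serpina1d: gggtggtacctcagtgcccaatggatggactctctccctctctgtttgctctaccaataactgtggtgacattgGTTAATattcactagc
Serpina1b: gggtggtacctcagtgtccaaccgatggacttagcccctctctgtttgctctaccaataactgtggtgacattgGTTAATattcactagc
The window of Serpina1e differs from that of Serpina1d at 6 bases, from that of Serpina1b at 3 and from those of Serpina1a and Serpina1c at 2 each. The half-site is unchanged in all 5. It was searched as GTTAAT on both strands, in windows from 250 bases before to 50 bases after the annotated start, and 7.10% of 32851 promoters of that length hold it. Among 23 tested serpins with a promoter entry, 7 hold it, namely the 5 Serpina1 copies, Serpina7 and Serpinb8. The 5 copies are alike here, so the 7 are not separate cases. Also searched were a STAT pattern, TTCNNNGAA, in 4 of the 23 and 8.30% of promoters, and a forkhead pattern, TGTTTA, in 9 and 13.4%. A match is a description of letters and not a binding site.

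Depth and library quality were uneven. The libraries held 21032878 to 40377742 gene counts, and serpin genes took 1.99% to 2.91% of them. Values are CPM, read counts scaled to library size with TMM factors, on which a count of 0 allows a level of up to 0.0841 to 0.106 CPM, counting error only. Cyr61 was at 15.6 to 32.4 CPM in the controls and 2.66 to 3.77 CPM in the KO livers, 12.6% of the control mean. The hepatocyte markers were present, with 8 of 8 tested and Alb at 23799 CPM or more. In control replicate 2 genes took 50.9% of the reads, where they took 82.8% or more in every other library. It had the lowest summed hepatocyte markers, at 40622 CPM where control replicates 1 and 3 had 91687 and 98690.4 CPM, and the highest summed cholangiocyte markers. Its sum of pancreas and gut markers, 1173 CPM, was nearly all from 1 gene, Dmbt1, at 1151 CPM there and at most 0.449 CPM elsewhere, while Prss1 and Cpa1 were at 0 in it.

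Of these 30 tested serpins, 1 was called lower in Cyr61 KO livers, Serpinb6a, and 0 higher by edgeR (adjusted p below 0.05). Over all 13563 tested genes 3.44% were called, 2.37% lower and 1.07% higher, so 1 of 30 serpins, 3.33%, is close to the background. The 3 control and 3 knockout values did not overlap in 8 of the 30, 7 lower and 1 higher, or 26.7%, against 35.2% of all tested genes, 17.9% lower and 17.3% higher. The median log2 fold change of the 30 was 0.05, where that of all genes was -0.03. At an unadjusted p under 0.05 there were 7 serpins. DESeq2 called 4 lower and 0 higher, adding Serpina1e, Serpinh1 and Serpini1, where it called 10.2% of all genes lower and 6.53% higher.

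**Figure D1:**
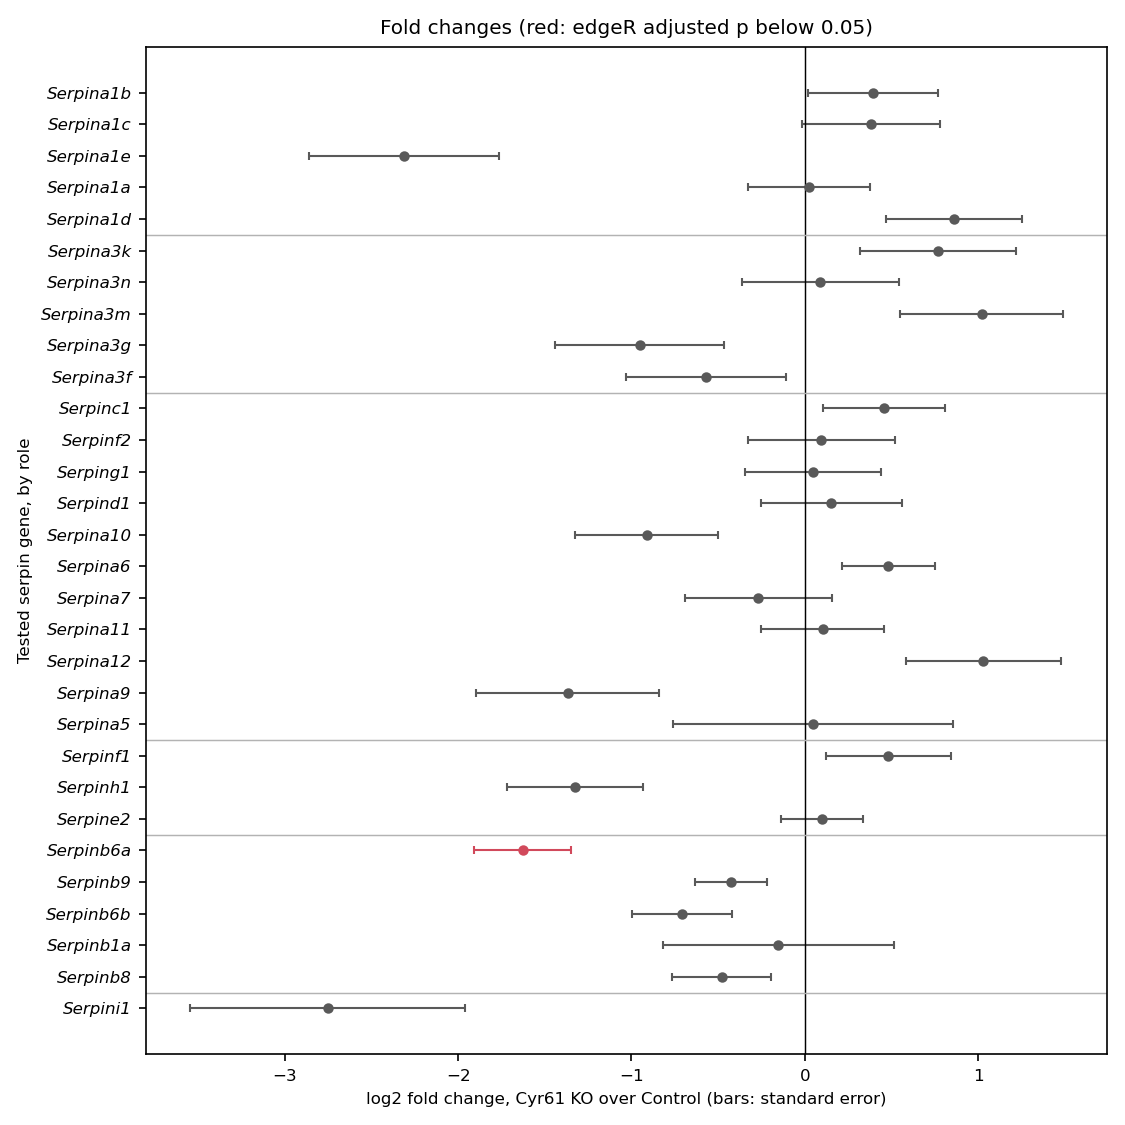
Log2 fold change of Cyr61 KO over Control for 30 tested serpins (points) with standard errors (bars), ordered by role, 3 libraries per group. Serpinb6a at -1.63, in red, passed the edgeR threshold, while Serpina1e at -2.31 and Serpini1 at -2.75 lie farther to the left and did not.

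Serpinh1 encodes HSP47, the chaperone of collagen in the endoplasmic reticulum. It was at 47.9, 99.2 and 36.1 CPM in the controls, by replicate number, against 16.2, 27.5 and 29.4 CPM in the KO livers. The ranges were apart, but the change did not pass, at -1.33 ± 0.39 (SE, edgeR adjusted p = 0.0863). Control replicate 2 held the top value, and without it the fold change was -0.77 (edgeR adjusted p = 0.164). Without control replicate 3 it passed at -1.58 (edgeR adjusted p = 0.0399). The median of 8 collagen genes whose chains are its clients was -1.40. Of them 4 were called lower and 0 higher, against 2.37% and 1.07% of all tested genes. These were Col1a1 at -2.27, Col3a1 at -1.78, Col5a2 at -1.76 and Col1a2 at -1.67. Without Cyr61 KO replicate 1 or 2 edgeR called 0 of the 8, and it called 0 when libraries were scaled by their totals alone.

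The other members described from the pericellular group did not pass. Serpinf1, which encodes the anti-angiogenic and non-inhibitory PEDF, was at 599.8, 314 and 717 CPM in the controls and 868, 804 and 604 CPM in the KO livers (0.48, edgeR adjusted p = 0.408). Serpine2, protease nexin-1, an inhibitor of thrombin and urokinase, was at 21.3, 27.2 and 19.4 CPM and at 28.5, 26.1 and 18.1 CPM (0.10, edgeR adjusted p = 0.81). Both overlapped between the groups. Serpine3 had 0 counts in every library. Serpini1, the neuroserpin gene, whose product inhibits tissue plasminogen activator, was rare, at 0.646, 3.10 and 0.619 CPM in the controls and 0.178, 0.142 and 0.308 CPM in the KO livers. Its ranges were apart, at -2.75 ± 0.79 (SE, edgeR adjusted p = 0.0815), and control replicate 2 alone exceeded 1 CPM. Without that library it was at -1.53 (edgeR adjusted p = 0.148). Serpini2 had 0 counts.

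Urokinase and tissue plasminogen activator, which the products of Serpine2 and Serpini1 inhibit, are given here with other genes of the plasminogen system, with Plat, Plg and Vtn chosen after their values were seen. Plau, which encodes urokinase, fell by 2.04 on the log2 scale, from 12.2 ± 2.85 to 2.96 ± 1.19 CPM (SD, n = 3, edgeR adjusted p = 0.0277). Plat, the tissue plasminogen activator, was at 8.12, 15.97 and 5.07 CPM in the controls and 1.28, 2.20 and 3.39 CPM in the KO livers, and missed the threshold (edgeR adjusted p = 0.0583). Plaur, the urokinase receptor, was at -2.49 and missed the threshold (edgeR adjusted p = 0.0547). The control and knockout ranges of these 3 genes were apart. Plg and Vtn, the plasminogen and vitronectin genes of hepatocytes, were at 0.45 and 0.03 (edgeR adjusted p = 0.587 and 0.961).

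Serpinb6a encodes a clade b inhibitor that stays in the cytosol and is known to bind cathepsin G. Its gene spans chromosome 13 from 33917918 to 34002794 on the minus strand. The loop-coding bases of this called gene and of its paralog Serpinb6b are shown from the hinge on, with the 15 bases that match the hinge pattern in capitals.
Serpinb6a: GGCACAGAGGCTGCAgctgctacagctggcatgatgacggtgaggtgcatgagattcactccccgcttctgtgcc
Serpinb6b: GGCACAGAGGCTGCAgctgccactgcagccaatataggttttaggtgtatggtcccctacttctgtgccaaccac
The hinge pattern, any codons for glycine, threonine, glutamate or aspartate, alanine and alanine in a row, read in frame on the coding strand, was found in 28 of 60 serpin coding sequences and in 17 of the 30 tested genes. In any frame 0.59% of 58797 protein-coding transcripts hold it. The pattern is strict, and the inhibitor genes Serpinc1, Serpinf2, Serping1, Serpine2 and Serpini1 lack it. Its absence therefore does not mark a gene as non-inhibitory. Serpinb6a and Serpinb6b have the same 15 bases at the hinge and part soon after.

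Serpinb6a was at 46.5, 78.1 and 42.6 CPM in the controls, by replicate number, against 17.9, 14.9 and 21.3 CPM in the KO livers. Every KO value was well below the lowest control. From 55.7 ± 19.5 to 18.03 ± 3.19 CPM (SD, n = 3) it fell by 1.63 ± 0.28 (SE) on the log2 scale (edgeR adjusted p = 0.0272). Control replicate 2 held the highest value, and without it the fold change was -1.28 (edgeR adjusted p = 0.0368). The call was kept without any single control and without Cyr61 KO replicate 3, and lost without Cyr61 KO replicates 1 and 2, at -1.61 and -1.49 (edgeR adjusted p = 0.0910 and 0.133). It was also lost with library totals, at -1.97 (edgeR adjusted p = 0.0717). Only 0.751% of the 50-base words in its transcripts occur in transcripts of another gene.

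The 4 other tested clade b genes had negative fold changes, and 0 passed. Serpinb9, the inhibitor of granzyme B, was at 15.6, 20.997 and 21.6 CPM in the controls and 15.4, 13.5 and 14.4 CPM in the KO livers, with ranges apart by little (-0.43, edgeR adjusted p = 0.216). Serpinb6b was at 13.1, 15.1 and 10.98 CPM and at 6.36, 6.35 and 11.2 CPM (-0.71, edgeR adjusted p = 0.16). Its groups overlapped through Cyr61 KO replicate 3. Serpinb8, known to inhibit furin, was at 6.18, 5.65 and 5.29 CPM and at 4.01, 3.37 and 4.88 CPM (-0.48, edgeR adjusted p = 0.30), again with ranges apart. Serpinb1a, an inhibitor of neutrophil elastase and cathepsin G, was at 2.13, 13.8 and 2.38 CPM in the controls and 6.48, 5.68 and 4.32 CPM in the KO livers. There control replicate 2 was above, and the other controls below, all knockouts, at -0.15, or 1.31 without that library (edgeR adjusted p = 0.896 and 0.072). Of the 22 untested clade b genes 14 had 0 counts, among them 4 Serpinb3 copies and 5 Serpinb9 copies, and the most reads in any library were 23, for Serpinb10 in control replicate 2.

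Sums of markers of several cell types differed between the groups. Hepatocytes secrete most of the serpins of blood plasma. Their markers summed to 40622 to 98690.4 CPM in the controls and 106622 to 129659 CPM in the KO livers. Of 8 markers 5 were higher without overlap and 1, Cyp2e1, was called higher, while Tat at -0.36 went the other way. Over all tested genes 17.3% were higher without overlap, 1.07% were called higher and 2.37% lower. Macrophage and monocyte markers summed to 532 to 923 CPM in the controls and 127 to 378 CPM in the KO livers, with 3 of 8 called lower. Stellate cell and fibroblast markers summed to 573 to 952 and 229.6 to 423 CPM, with 4 of 8 called lower. Col1a1 is among these 4 and also among the called collagen genes above. In that list Lrat at 0.09 and Reln at 0.05 did not fall. Cholangiocyte markers summed to 236 to 1372 and 80.4 to 158 CPM, with 0 of 6 called. Such sums follow their most abundant gene. By control mean these were Alb (52218 CPM) for hepatocytes, Lyz2 (493 CPM) for macrophages and Spp1 (509 CPM) for cholangiocytes. Neutrophil markers, with Ly6g not in the tables, summed to 9.52 to 50.8 and 1.42 to 2.58 CPM, with 2 of 4 tested called lower. Sums were 16.6 to 57.8 against 2.98 to 8.61 CPM for dendritic cells (1 of 5 called lower), 5.60 to 61.5 against 2.73 to 3.36 CPM for T and NK cells (0 of 6) and 13.0 to 60.4 against 4.43 to 5.72 CPM for B and plasma cells (1 of 5 called lower). In each of these 7 lists other than hepatocytes control replicate 2 had the highest sum. Kupffer cell, mesothelial and mast cell sums overlapped between the groups, with 0 called, as did the endothelial sums, with 2 of 6 called higher. In whole liver, fewer cells of a type and less RNA per cell cannot be told apart, and the part of these cells in the serpin values was not tested.

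**Figure D2:**
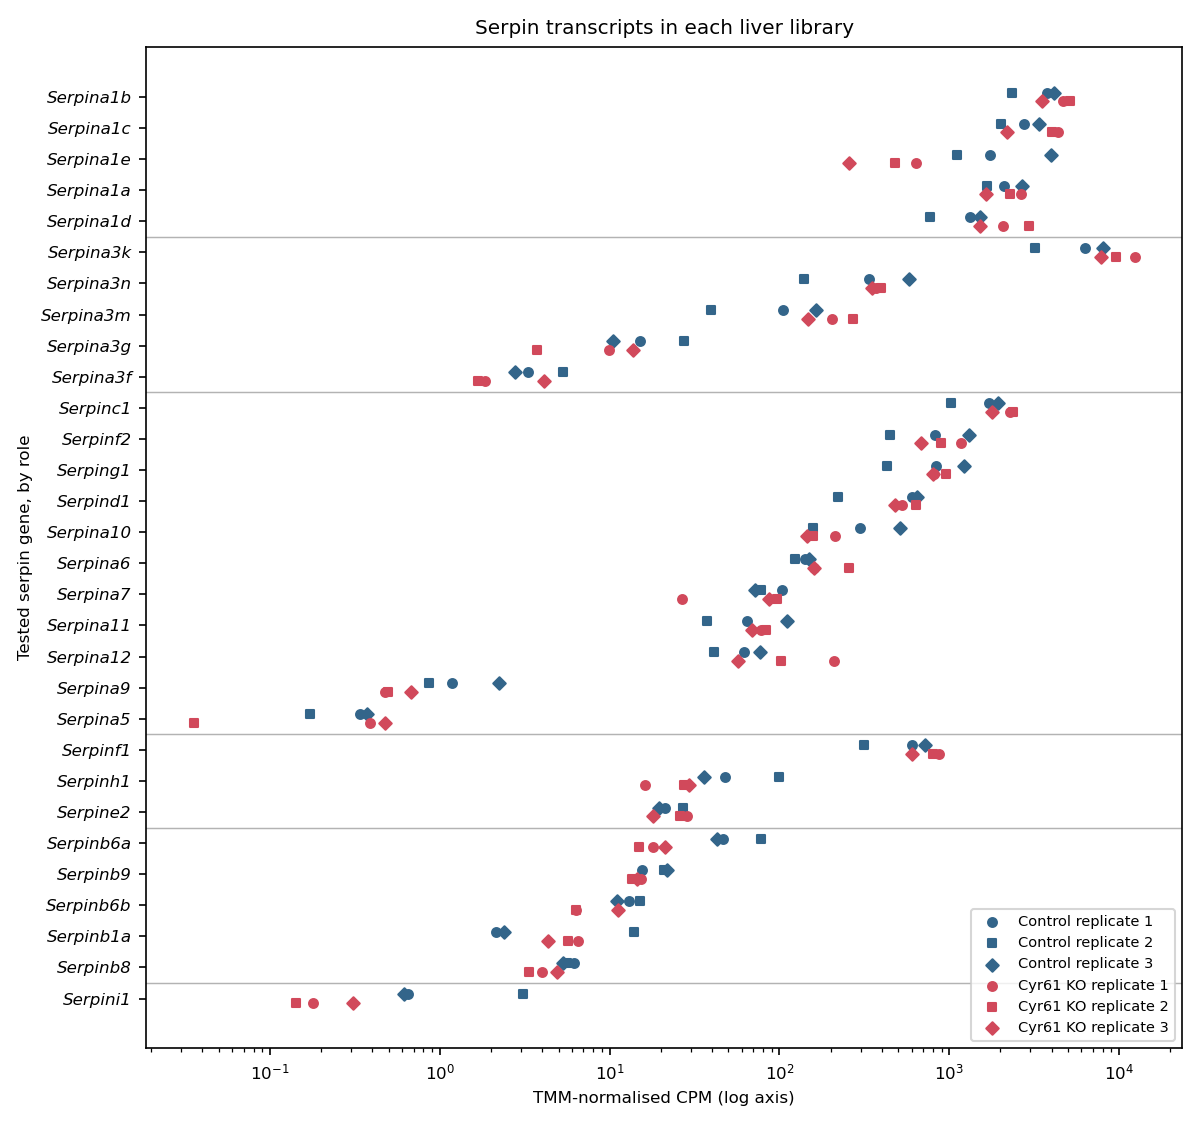
TMM-normalised CPM (log axis) of 30 tested serpins in each library, ordered by role, with Control in blue, Cyr61 KO in red and a marker shape per replicate. Serpinb6a and Serpina1e show blue and red points apart, while control replicate 2 (blue squares) lies lowest among the controls for most of the abundant liver serpins.

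Among the alpha-1-antitrypsin copies, Serpina1e was the 1 tested copy with all knockouts below all controls. It lies on chromosome 12 from 103946931 to 103956897 and was at 1733, 1103 and 3949 CPM in the controls, by replicate number, against 633, 477 and 256 CPM in the KO livers. All 3 knockouts were below the lowest control, and control replicate 3 was far above the other controls. The mean was 2261 ± 1494.9 CPM in the controls and 455 ± 189 CPM in the KO livers (SD, n = 3), or 20.1% of the control level, at -2.31 ± 0.55 (SE). This missed the threshold (edgeR adjusted p = 0.0544). It passed with DESeq2 (adjusted p = 8.6e-05), without the low-count filter (edgeR adjusted p = 0.0304) and without control replicate 2 (-2.61, edgeR adjusted p = 0.045). It missed the threshold in all other settings, with an edgeR adjusted p of up to 0.217. Without control replicate 3 it was at -1.63 (edgeR adjusted p = 0.0665).

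Its neighbours did not pass the test, and the difference between copies was not tested. Serpina1b, which took the most reads of the copies in the controls before any correction for length, was at 3745, 2327 and 4132 CPM in the controls and 4692, 5160.3 and 3532 CPM in the KO livers (0.39, edgeR adjusted p = 0.52). Serpina1c was at 2747, 2008 and 3364 CPM and at 4377, 4033 and 2182 CPM (0.38, edgeR adjusted p = 0.553). Serpina1a was at 2111, 1665 and 2695 CPM and at 2651, 2280.0 and 1641 CPM (0.02, edgeR adjusted p = 0.972). In these 3 the groups overlapped. Serpina1d was at 1316, 771 and 1508 CPM and at 2080, 2942 and 1508 CPM, with the highest control and the lowest knockout almost equal (0.86, edgeR adjusted p = 0.195). Serpina1f had 1 read in all.

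The split of reads between copies within a library does not depend on scaling between libraries. Serpina1e took 14.9%, 14.0% and 25.2% of the Serpina1 counts in control replicates 1, 2 and 3 and 4.38%, 3.20% and 2.81% in the knockouts. Its mean share was 18.04% ± 6.25 and 3.46% ± 0.820 (SD, n = 3), and the ranges were far apart. Serpina1d took 9.64% to 11.3% in the controls and 14.4% to 19.8% in the knockouts, also with ranges apart. Serpina1b took 26.4% to 32.1% and 32.5% to 38.7%, ranges that were barely apart, while Serpina1a and Serpina1c overlapped. Shares of a whole are tied to each other, so a smaller share of one copy raises the rest. With 3 libraries against 3 an exact permutation test cannot go below a two-sided p of 0.1, and none was used. Summed over the copies, Serpina1 was at 11724 ± 3890.3 CPM in the controls and 12815 ± 3208 CPM in the KO livers (SD, n = 3), at 0.13 ± 0.44 (SE, edgeR adjusted p = 0.865).

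**Figure D3:**
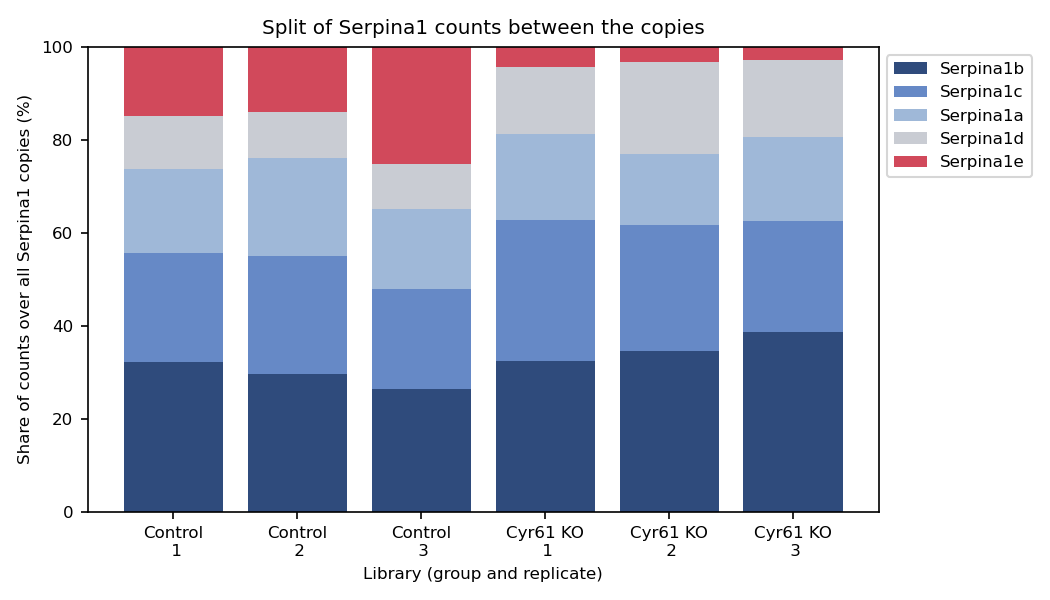
Share (%) of all Serpina1 counts taken by each of 5 copies in each library, as stacked bars that sum to 100. The Serpina1e segment, in red at the top, spans 14.0% to 25.2% in the controls and 2.81% to 4.38% in the knockouts.

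The copies share sequence, which limits how far their levels can be measured and separated. Of the distinct 50-base words in Serpina1e transcripts 34.6% also occur in transcripts of another gene, mostly Serpina1d. The share was 29.5% for Serpina1b, 50.9% for Serpina1d, 57.6% for Serpina1a and 74.2% for Serpina1c. The read length is not given in the sources used here. Reads mapped to several positions were listed apart from genes, so reads that fit several copies equally well were in no copy's count. Such reads are also missing from the summed Serpina1 and Serpina3 values, and how many each copy lost is not known. The loop windows printed above, in which Serpina1e differs at 10 to 12 bases from each other copy, are among the places where copies can be told apart.

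Compared between genes per kilobase of the principal transcript, the alpha-1-antitrypsin copies and Serpina3k were the most abundant serpins. In the controls Serpina3k led at 2835 CPM per kb, followed by Serpina1c at 1988, Serpina1b at 1930, Serpina1a at 1586, Serpina1e at 1436 and Serpina1d at 860. Serping1 at 468 and Serpinf2 at 391 CPM per kb came next. In the knockouts the order of the first 4 was the same. Serpina1e stood there at rank 10 with 289 CPM per kb, against rank 5 in the controls. Lengths were not corrected for sequence shared between copies, so the order among the Serpina1 copies is uncertain. The called gene, Serpinb6a, was far less abundant, at 33.7 CPM per kb in the controls.

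Serpina3 is likewise a cluster of copies on chromosome 12, of which 5 of 11 were tested, with 0 called and 0 with ranges apart. Of the 6 untested copies Serpina3j had 0 counts, and the others had at most 22 reads in any library. Serpina3k, a kallikrein-binding serpin of liver, was at 6258, 3207 and 8028 CPM in the controls and 12385, 9623 and 7766 CPM in the KO livers (0.77, edgeR adjusted p = 0.294). Serpina3m was at 105, 39.7 and 163 CPM and at 205, 273 and 148 CPM (1.02, edgeR adjusted p = 0.197). In both, control replicate 2 was lowest and control replicate 3 lay above Cyr61 KO replicate 3. Serpina3n, an acute phase inhibitor related to antichymotrypsin, was at 335, 139 and 577 CPM and at 371, 394 and 352 CPM (0.09, edgeR adjusted p = 0.911). Its controls spread widely around close knockout values. Serpina3g, found in leukocytes, was at 14.999, 27.5 and 10.5 CPM and at 9.89, 3.72 and 13.7 CPM (-0.95, edgeR adjusted p = 0.235), and Serpina3f ranged from 1.67 to 5.30 CPM (-0.57, edgeR adjusted p = 0.443). Serpina3k took 91.4% to 93.8% of the Serpina3 counts in the controls and 93.5% to 95.5% in the knockouts. Summed, the copies were at 6307 ± 2706 and 10518 ± 2353 CPM (SD, n = 3), at 0.74 ± 0.45 (SE, edgeR adjusted p = 0.316). The gene models of Serpina3k and Serpina3m overlap in GENCODE M21, and 14.0% and 19.1% of their 50-base words occur in another gene.

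The other 11 serpins of blood plasma or close to them in sequence had 0 called. Serpinc1, antithrombin, the main inhibitor of thrombin and activated factor X, was at 1712, 1029 and 1946 CPM in the controls and 2277, 2356 and 1795 CPM in the KO livers (0.46, edgeR adjusted p = 0.421). Serpind1, heparin cofactor II, was at 603, 221 and 649 CPM and at 525, 634 and 479 CPM (0.15, edgeR adjusted p = 0.828). Serpinf2, the inhibitor of plasmin, was at 824, 445 and 1299 CPM and at 1171, 897 and 677 CPM (0.10, edgeR adjusted p = 0.898). In these 3 control replicate 2 was the lowest library and the groups overlapped. Serping1, the C1 inhibitor of complement and kallikrein, was at 834, 429 and 1218 CPM and at 809, 955 and 802 CPM (0.05, edgeR adjusted p = 0.945). Serpina10, which inhibits activated factor X together with protein Z, was at 296, 157 and 514 CPM and at 212, 158 and 144 CPM (-0.91, edgeR adjusted p = 0.192). Its highest values were in control replicates 3 and 1, and control replicate 2 lay within the knockouts.

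Neither hormone carrier passed the test. Serpina6, the corticosteroid-binding globulin gene, was at 142, 123 and 149 CPM in the controls and 160.2, 258 and 161 CPM in the KO livers, the 1 tested serpin with higher ranges apart, and did not pass (0.48, edgeR adjusted p = 0.269). Serpina7, the thyroxine-binding globulin gene, was at 103, 77.7 and 72.2 CPM and at 26.6, 96.4 and 87.1 CPM (-0.27, edgeR adjusted p = 0.701), and Cyr61 KO replicate 1 alone was low. Without that library it was at 0.13. Serpina12, vaspin, an adipokine linked to insulin sensitivity, was at 61.8, 41.4 and 76.8 CPM and at 209, 102 and 57.0 CPM (1.03, edgeR adjusted p = 0.177). Here Cyr61 KO replicate 1 was the highest and replicate 3 lay within the controls. Serpina11, a little-known neighbour, was at 37.5 to 111 CPM in the controls and 68.5 to 83.1 CPM in the KO livers (0.10, edgeR adjusted p = 0.866). Serpina9, known from germinal centre B cells, was at 1.18, 0.861 and 2.23 CPM and at 0.475, 0.497 and 0.673 CPM, with ranges apart (-1.37, edgeR adjusted p = 0.141). Serpina5, the protein C inhibitor gene, stayed at or below 0.477 CPM in every library (0.04, edgeR adjusted p = 0.976).

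Of 30 listed proteases that serpins are known to inhibit, 25 were tested, and the median was 0.28. Of these 3 were called lower and 0 higher, against 2.37% and 1.07% of all tested genes. The called genes were Plau, St14, the membrane protease matriptase, at -2.39 (edgeR adjusted p = 0.0429), and Prtn3, the neutrophil proteinase 3 gene, at -4.73 (edgeR adjusted p = 0.0458). Prtn3 was at 0.927, 1.55 and 11.7 CPM in the controls and at most 0.213 CPM in the KO livers, so control replicate 3 set its size. Elane and Ctsg, also named after their values were seen, encode the neutrophil elastase and cathepsin G that Serpina1 and Serpinb6a products bind, and were not tested, with at most 40 and 9 reads in any library. Without control replicate 2 edgeR called 0 of the proteases, and likewise without Cyr61 KO replicate 1 or 2. Of 11 cofactors and clearance receptors 0 were called by edgeR, 2 were at an unadjusted p under 0.05, while by DESeq2 1 was lower. The 2 with the smallest p were Plaur and Proz, which encodes the protein Z that assists Serpina10, at 0.85 (edgeR adjusted p = 0.182).

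Inhibitors of other families and acute phase genes were counted alongside. Over all tested genes 2.37% were called lower and 1.07% higher. Of 19 tested non-serpin inhibitors 2 were called lower, Cstb, the cystatin B gene, at -1.75 (edgeR adjusted p = 0.0107) and Timp1, an inhibitor of metalloproteinases, at -2.93 (edgeR adjusted p = 0.0195). Of 22 acute phase genes without serpins 5 were called lower and 0 higher, Saa1, Saa2, Saa3, Orm2 and Lcn2, at -2.54 to -4.41, with a median of -0.67. The acute phase serpin Serpina3n, at 0.09, was not among the called genes, while Saa1, Saa2, Orm2 and Lcn2 were highest in control replicate 3 and Saa3 in control replicate 2. Of the 30 tested serpins 10 were highest in control replicate 3, Serpina3n and Serpina1e among them. The part of an acute phase response in that library in these values was not tested.

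How many serpins passed moved with the processing, and so did the share of all genes called lower. Serpinb6a was also the 1 called with DESeq2 size factors (2.34% of all genes lower), a filter at 1 CPM (2.46%), a block for the replicate number (3.47%), counts of both strands (2.35%), and without control replicate 1 (0.949%) or Cyr61 KO replicate 3 (4.35%). With no low-count filter (3.72%) and without control replicate 2 (1.22%) Serpina1e joined it, and without control replicate 3 (5.17%) Serpinh1 and Serpini1 did. With library totals (0.17%), and without Cyr61 KO replicate 1 (0.0215%) or 2 (0.086%), 0 serpins were called lower.

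**Figure D4:**
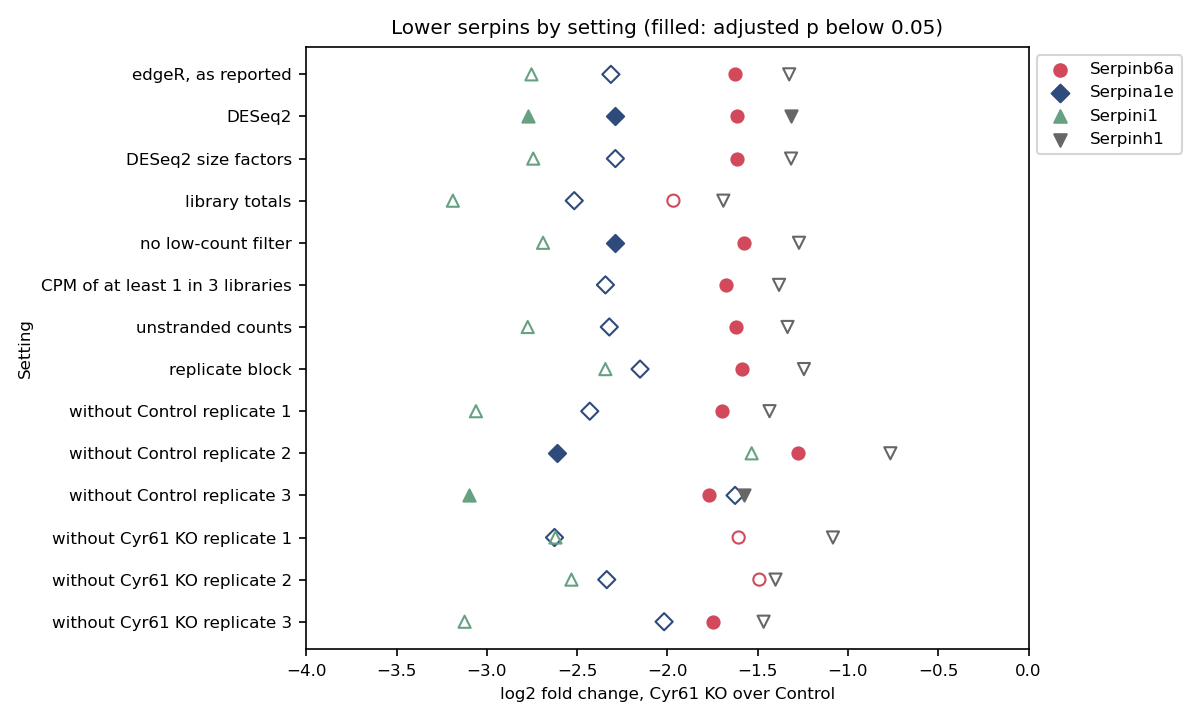
Log2 fold change of Cyr61 KO over Control for 4 serpins (symbols) under each processing setting (rows), filled where the adjusted p is below 0.05. All points lie below 0, with no point for Serpini1 under the 1 CPM filter, which it did not pass, while Serpinb6a loses the call with library totals and without Cyr61 KO replicates 1 or 2, and Serpina1e gains it in 3 settings.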

How the data were processed

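The authors deposited 1 table of read counts per gene and library, holding counts without regard to strand and counts per strand. The submitters' processing notes name STAR 2.6.1a, Trimmomatic 0.38 and the builds mm10 and hg38. The annotation release is not given in the sources used here. The strand that fits the directional kit was used. Reads that were unmapped, in no gene, in several genes or at several positions stayed out of all totals. They were 12.4% to 17.2% in 5 libraries and 49.1% in control replicate 2. Reads in no gene alone were 25.7% in control replicate 2 and 4.27% to 7.14% in the others.

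The test was edgeR's (version 4.0.16, R 4.3.3; quasi-likelihood F test, two-sided, group term only) after filterByExpr (minimum count 10, total 15) and TMM, with Benjamini-Hochberg adjustment over 13563 genes. Each standard error was obtained by dividing the size of the log2 change by the root of its F value. Serpina1 and Serpina3 copies were also summed before the fit. The fits were tested on simulated counts with 50 genes changed at each fold size. At 1.5, 2, 4 and 8 fold edgeR recovered 0%, 6%, 62% and 92% of them, with 2 false calls. DESeq2 recovered 6%, 22%, 76% and 90%, with 22 false calls. Most changes of 2 fold or less were thus missed, and a gene that did not pass may still differ. Alternatives were DESeq2 1.42.0, other scalings and filters, unstranded counts, the replicate block and leaving out each library.

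Members and lists were chosen with earlier results of these data known. Of the 62 members 1 is not reported here, and all counts of members leave it out. Library values are given for called members, those with a mean of at least 10 CPM, and up to 2 more per role by p. Positions are RefSeq's on GRCm38.p6, the assembly of mm10, and transcripts are GENCODE M21's, 1 principal transcript per gene. Of the 61 members described 52 were in the promoter table. Alignments used MAFFT 7.526.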

Additional observations from a re-analysis of the deposited data

How the results depend on the processing

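The log2 fold changes of Serpinb6a, Serpina1e, Serpinh1 and Serpini1 stayed negative under the 13 alternatives, 12 for Serpini1, which the 1 CPM filter removed. Their calls by setting are in the report. DESeq2 called 2273 genes (886 higher, 1387 lower), 4 serpins, all lower, 6 target proteases, 1 cofactor and 7 non-serpin inhibitors lower, and 1 non-serpin inhibitor and 1 acute phase gene higher. Library totals alone, which moved the median of all genes from -0.03 to -0.30, gave 50 genes (27 higher, 23 lower), 0 serpins, 0 target proteases, 0 collagen genes, 0 acute phase genes and 1 non-serpin inhibitor lower. Under that scaling these values turned negative: Serpine2 -0.24, Serpinf2 -0.11, Serpina1a -0.23, Serpina11 -0.081, Serpina5 -0.15, Serpina3n -0.067, Serpind1 -0.030, Serping1 -0.13 and summed Serpina1 -0.10. With no low-count filter 944 genes (278 higher, 666 lower), 2 serpins, 1 cofactor and 4 non-serpin inhibitors lower were called. With a filter at 1 CPM Serpina1a was at -0.015.

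The replicate numbers gave no sign of pairing, with same-numbered deviations correlated at -0.096, -0.226 and -0.442. With 3 libraries per group these values are tied to each other and cannot exclude pairing. With the replicate block 633 genes, 1 serpin and 1 cofactor lower were called, Serpina5 was at -0.22 and Serpinb1a at 0.41.

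Leaving out 1 library at a time gave 7 to 878 genes called (4 to 169 higher, 3 to 720 lower), 0 to 3 serpins, 0 to 5 target proteases, 0 to 1 cofactors, 0 to 5 collagen genes, 0 to 3 non-serpin inhibitors and 0 to 7 acute phase genes lower, and summed Serpina1 at -0.064 to 0.41. Fold changes of both signs came from leaving out control replicate 2 and control replicate 3 in turn for Serpinf2 (-0.18 to 0.54), Serpina11 (-0.17 to 0.60), Serpina3n (-0.26 to 0.67), Serpind1 (-0.17 to 0.42), Serping1 (-0.23 to 0.45) and Serpinb1a (1.31 to -0.52). Over all 6 libraries left out, Serpina1a ranged from -0.13 to 0.23, Serpine2 from -0.022 to 0.28, Serpina5 from -0.43 to 0.56 and Serpina7 from -0.55 to 0.13. The cause was not tested. Depth limits members near or under the 3-count floor.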
